A study of Sus scrofa with 36 samples.

Results

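The comparison set 4 mammary glands of ovariectomized pigs treated with haloperidol (group H) against 4 glands of pigs that kept their ovaries (group sham), which are 8 of the 36 arrays in the series. Both groups were chosen by the treatment labels, haloperidol with no added steroid and saline after a sham operation. All animals were female Yucatan miniature swine 5 months old, with 1 array per animal, and all received BrdU, a nucleoside label of DNA synthesis, in the last 24 hours. The H pigs had their ovaries removed, then received bromocriptine for 8 days and haloperidol for the last 5 days. The sham pigs had an operation that left the ovaries in place and received saline for 13 days. A further group served for comparison: the 4 B pigs were ovariectomized and received bromocriptine for all 13 days. H and sham therefore differed in the ovaries, in bromocriptine and in haloperidol at once, and the parts of these cannot be told apart in H minus sham. H and B differed only in the drug of the last 5 days.

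Ovarian estrogen and progesterone drive the growth of mammary ducts and lobules in the pubertal animal, in part through growth factors that receptor-bearing epithelial cells release to their neighbours. Prolactin, made in the pituitary under inhibition by dopamine, drives the secretory program through its receptor and the transcription factor STAT5. Bromocriptine is a dopamine agonist that lowers prolactin release, and haloperidol is a dopamine antagonist that raises it. Hormone concentrations were not analysed here.

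Values are RMA expression values taken as log2, and a change is H minus sham on that scale ± SE from limma with n = 4 arrays in each group. Of 20792 probe sets, 841 passed an adjusted p of 0.05 (limma, Benjamini-Hochberg), which is 4.04% of those tested. Of these, 330 were higher in H (1.59%) and 511 were lower (2.46%). Among the 841, 257 were more than 2-fold higher and 386 more than 2-fold lower, and 27 and 104 were past 4-fold in those directions. Only 372 of the 841 carried a single gene symbol, and 464 carried none. With 1 probe set for each of 6360 named genes, 266 genes were called (4.18%), 80 higher (1.26%) and 186 lower (2.92%), and the median change of all genes was -0.03.

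Within the H group the arrays correlated at 0.963 to 0.975 over all probe sets, and within the sham group at 0.934 to 0.979. Array C of the sham group stood apart, with correlations of 0.934 to 0.946 to the other sham arrays, which correlated with each other at 0.968 to 0.979. Without sham C, 1007 probe sets were called, 524 higher and 483 lower, so the excess of falls over rises was not seen without this array. Leaving out any other single array of H or sham gave 422 to 575 calls, the fewest without H array D. Array C of the H group had a mean level of 10.7 over 27 skeletal muscle genes, against 6.24 to 6.91 in the other H arrays and 5.52 to 6.10 in the sham arrays. None of the muscle genes passed the test, and their median change was 1.73, or 0.42 without H array C. Of the 27 changes 26 were positive. Every H array lay above every sham array for 6 of the 27 (22.2% against 5.82% of all genes) and below for 1 (3.7% against 9.04%). Defining genes of mammary tissue were present: KRT18, a keratin of luminal cells, averaged 10.7 in H and 11.6 in sham, and CSN2, which encodes beta-casein, averaged 11.8 in H and 10.7 in sham.

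**Figure D1:**
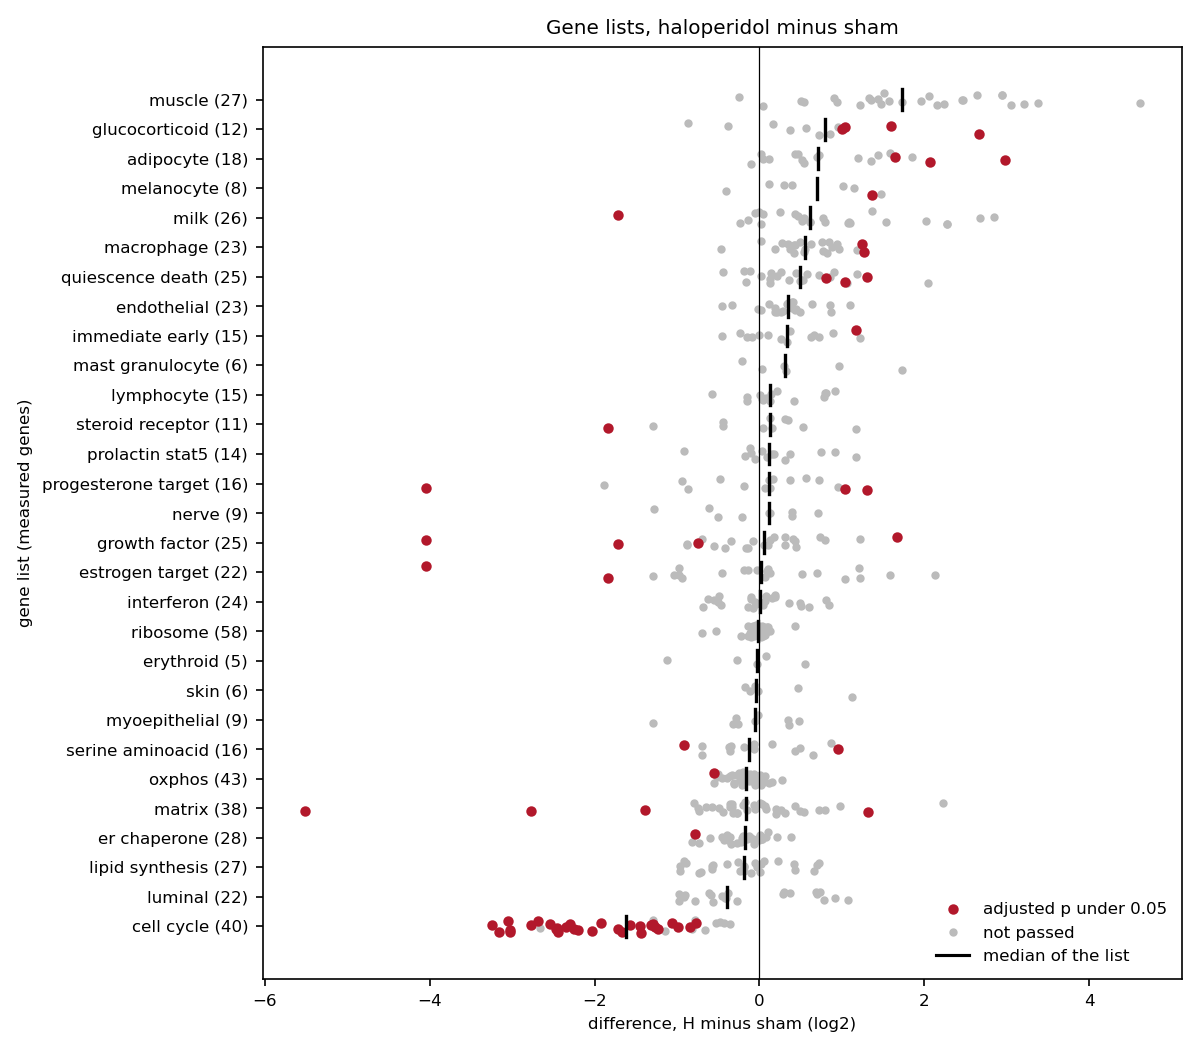
Change in each measured gene of 29 gene lists, H minus sham on the log2 scale (x axis), with one row per list and its number of measured genes in brackets. Red points passed an adjusted p of 0.05 in limma, grey points did not, and black bars mark list medians. The cell cycle list lies wholly below 0, with a median of -1.62 and 30 of 40 genes called lower.

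Genes of DNA replication and cell division were lower in the H glands than in the sham glands. Of 40 measured members of a 76-gene cell cycle list, 30 fell, which is 75.0% against 2.92% of all genes, and none rose. All 40 had a negative change, with a median of -1.62, and for 35 of them every H array lay below every sham array, which is 87.5% against 9.04% of all genes. This list and those below were chosen with earlier results of these data known, so their shares describe the data and are no independent test. In tissue RNA, fewer cells of a type and less RNA per cell cannot be told apart. The 30 that fell did so by 0.77 to 3.25 on the log2 scale.

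Several encode the machinery that copies DNA. RRM2, a subunit of ribonucleotide reductase, which makes the building blocks of DNA, had values of 6.31, 6.85, 6.90 and 6.84 in H, against 9.13, 10.3, 9.92 and 9.65 in sham. The H arrays lay close together and well below the lowest sham array. RRM2 fell by 3.03 ± 0.57, or 8.16-fold (limma adjusted p = 0.00242). MCM2, part of the helicase that opens replication origins, fell by 2.46, and TYMS, which makes thymidylate, fell by 2.25. Outside the list, PCLAF, which binds the sliding clamp at replication forks, fell by 3.15 ± 0.64 (adjusted p = 0.00455), and a second probe set for it fell by 1.92. PCNA, the clamp itself, had a change of -0.78 and an adjusted p of 0.0678, so it did not pass.

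Others act in mitosis. TOP2A, the topoisomerase that untangles chromosomes, had values of 6.52, 6.88, 7.67 and 6.67 in H, against 9.61, 10.71, 10.05 and 10.05 in sham. No H array reached the lowest sham array, and TOP2A fell by 3.16 ± 0.64, or 8.96-fold (limma adjusted p = 0.00454). CCNB1, the cyclin that carries cells into mitosis, had values of 5.86, 6.16, 6.86 and 5.36 in H, against 8.64, 9.98, 9.67 and 8.95 in sham. The groups did not overlap, and CCNB1 fell by 3.25 ± 0.68, or 9.50-fold (adjusted p = 0.00533). CCNB2, a related B-type cyclin, fell by 3.02. CENPF, NDC80 and NUF2, which belong to the kinetochore, fell by 3.05, 2.77 and 2.35. FOXM1, a transcription factor of the mitotic genes, fell by 2.20. Like PCLAF, further division genes stood among the 15 largest falls without belonging to the list: CDCA3, NEK2 and DLGAP5 fell by 3.12, 3.07 and 2.75. For NEK2, 2 dimmer probe sets had changes of -0.92 and -1.18 that did not pass. All H values of CENPF, NDC80, CDCA3 and DLGAP5 lay under 5.90, the smallest lower quartile of any array. The size of these falls thus rests on dim signals. Of 17 named called genes with more than 1 probe set, 14 had the same sign in all of them, and in 7 all probe sets were called.

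The 10 list members that did not pass were RRM1, CDKN3, PCNA, FEN1, MAD2L1, AURKA, KIF20A, HMMR, CKS1B and HMGB2, with changes of -0.36 to -2.67. AURKA, a mitotic kinase, had the lowest adjusted p of these, 0.0508. MKI67, the usual proliferation marker, was not measured under its symbol. Against the same 4 sham glands, the B glands had 30 members lower and a median of -1.71. H minus B called none of the 40, where it called 5 of 6360 genes (0.0786%, all higher), with a median of 0.16.

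**Figure D2:**
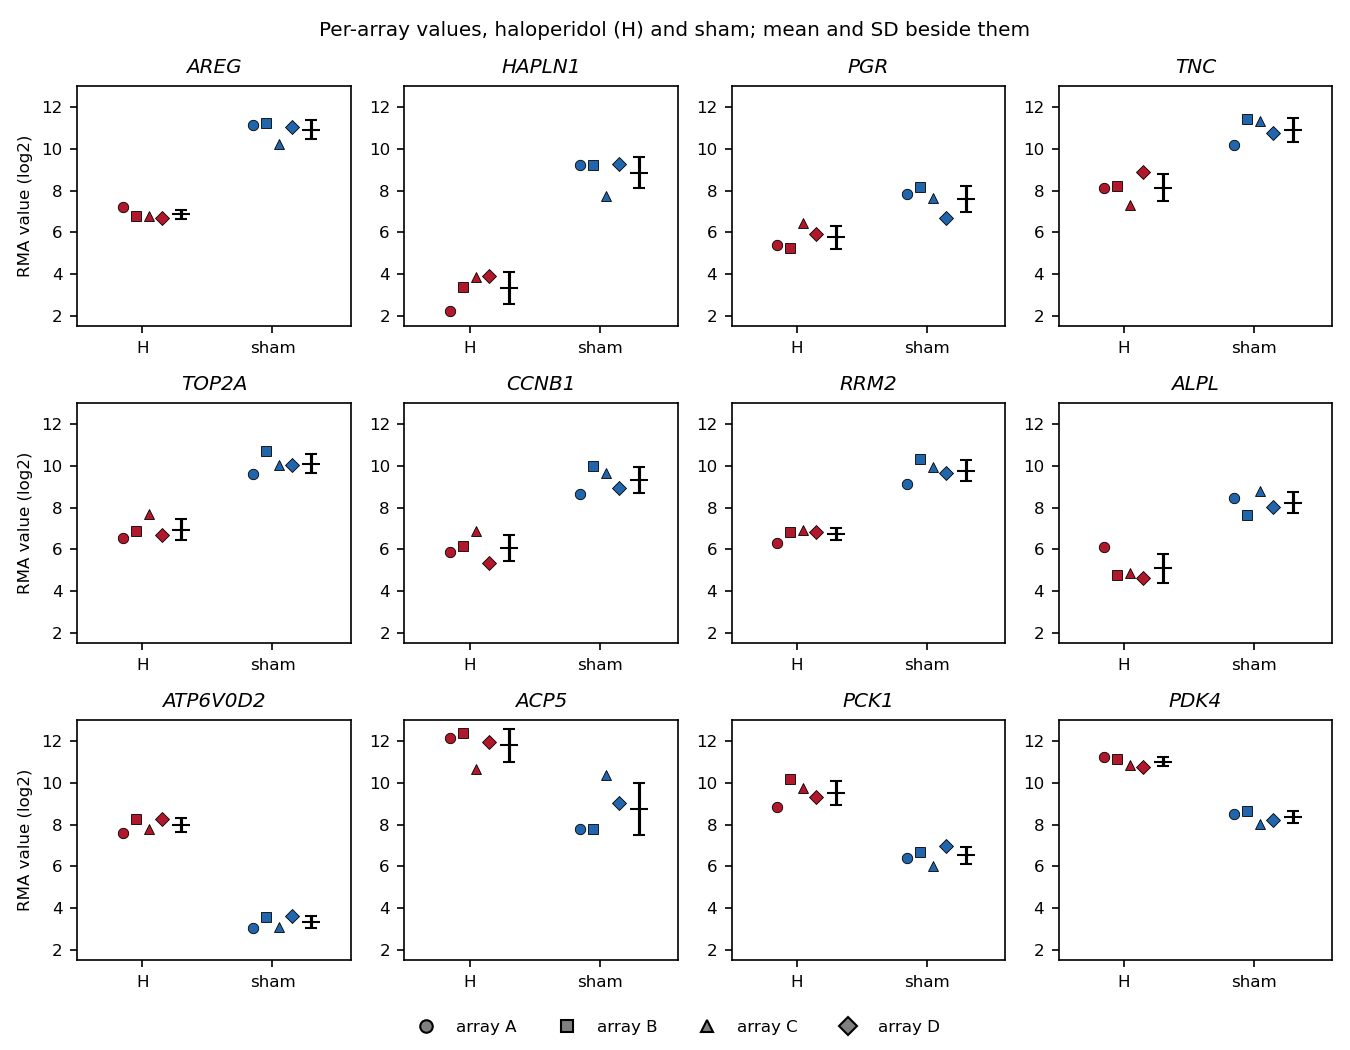
RMA values (log2, y axis) of 12 genes in each array of H (left, red) and sham (right, blue), with the symbol giving the array letter and the bar giving mean and SD of 4 arrays. The upper 8 genes are lower in every H array than in any sham array, and the lower 4 genes are higher in every H array.

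Among genes known to respond to ovarian steroids, AREG and PGR fell, and AREG was among the largest changes. AREG, amphiregulin, the epithelial growth factor released under estrogen that acts on the EGF receptor, had values of 7.198, 6.80, 6.77 and 6.70 in H, against 11.14, 11.24, 10.23 and 11.02 in sham. The H arrays differed from each other by little, and the gap to sham was large. AREG fell by 4.04 ± 0.54, or 16.5-fold (limma adjusted p = 9.26e-05). PGR, the progesterone receptor and itself an estrogen target, had values of 5.41, 5.26, 6.45 and 5.90 in H, against 7.84, 8.19, 7.66 and 6.71 in sham. The groups came close to each other at H array C and sham array D without overlapping. PGR fell by 1.84 ± 0.53, or 3.58-fold (adjusted p = 0.0422). The call was lost without any single array except H array C and sham array D, with adjusted p of 0.0642 to 0.127. These were the called genes among 22 measured estrogen targets (9.09% lower against 2.92% of all genes). None was called higher, and the median of that list was 0.02. Every H array lay below every sham array for 4 of the 22 (18.2% against 9.04% of all genes) and above for 3 (13.6% against 5.82%). Of 16 progesterone targets, FOXO1 and KLF9 rose (12.5% against 1.26% of all genes) and AREG fell (6.25%).

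The receptors themselves gave less. ESR1, the estrogen receptor, averaged 4.05 ± 0.22 in H and 4.495 ± 0.31 in sham (SD, n = 4 each), with a change of -0.45 ± 0.33 and an adjusted p of 0.501. It was dim, with an average under 5.90, the smallest lower quartile of any array, so its level was poorly measured. PGR was the only called gene of 11 steroid, growth hormone and related receptors (9.09% lower against 2.92% of all genes). OXTR, the oxytocin receptor, had a change of -1.30 ± 0.50 (adjusted p = 0.143), and EGFR, the receptor for amphiregulin, one of 0.53 (adjusted p = 0.0579). PRLR, the prolactin receptor, was not measured under its symbol.

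Matrix genes linked to a growing stroma were among the largest falls. HAPLN1, the link protein that joins hyaluronan to proteoglycans, had values of 2.25, 3.36, 3.84 and 3.92 in H, against 9.23, 9.20, 7.75 and 9.27 in sham. All H values lay below the lower quartiles of the arrays, which were 5.90 to 6.09, so the size of the fold rests on dim signals. HAPLN1 fell by 5.52 ± 0.69, or 45.8-fold (limma adjusted p = 9.26e-05), the largest called change of a named gene in this comparison, and a second probe set fell by 3.53. TNC, tenascin-C, a matrix glycoprotein of growing and healing tissue, had values of 8.11, 8.20, 7.30 and 8.89 in H, against 10.2, 11.4, 11.3 and 10.7 in sham. The groups did not overlap, and TNC fell by 2.78 ± 0.50, or 6.85-fold (adjusted p = 0.00176). VCAN, versican, a hyaluronan-binding proteoglycan, fell by 1.39 ± 0.30 (adjusted p = 0.00771). Of its 4 other probe sets, 2 also fell, by 2.16 and 1.13, and 2 with changes of -0.79 and -0.72 did not pass.

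Of 38 measured matrix genes these 3 fell (7.89% against 2.92% of all genes), 1 rose (2.63% against 1.26%) and the median was -0.17. Every H array lay below every sham array for 7 of the 38 (18.4% against 9.04% of all genes) and above for 6 (15.8% against 5.82%). The gene that rose was TIMP3, an inhibitor of matrix proteases, at 1.31 ± 0.35 (limma adjusted p = 0.0280). Sham C at 8.07 lay above H array C at 7.89, and the call was lost in the fit of H and sham alone (adjusted p = 0.0662) and without sham array A, B or D or H array B or D (up to 0.109). LOXL1, which cross-links elastin, had a change of -0.65 ± 0.21 and an adjusted p of 0.0788. Outside the list, ALPL, the tissue-nonspecific alkaline phosphatase, had values of 6.12, 4.76, 4.85 and 4.64 in H, against 8.44, 7.63, 8.81 and 8.04 in sham. H array A was the highest of its group and still below every sham array, and ALPL fell by 3.14 ± 0.51 (adjusted p = 0.00092). The other H arrays lay under 5.90, so the size of this fall rests in part on dim signals. ZFP42, known as a marker of pluripotent cells, fell by 3.82 ± 1.08 (adjusted p = 0.0382) on dim and scattered values, 2.29 to 6.07 in H and 6.75 to 9.32 in sham.

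Of 25 measured growth factors and members of their pathways, AREG, PTHLH and DKK3 fell (12% against 2.92% of all genes) and FZD5 rose (4.0% against 1.26%). Every H array lay below every sham array for 6 of the 25 (24.0% against 9.04% of all genes) and above for 1 (4.0% against 5.82%). PTHLH, parathyroid hormone-related protein, which mammary epithelium secretes and which acts on stroma and bone, averaged 9.24 ± 0.28 in H and 10.95 ± 0.38 in sham (SD, n = 4 each) and fell by 1.71 ± 0.36 (limma adjusted p = 0.0059). DKK3, a secreted protein of the Dickkopf family, fell by 0.74. FZD5, a Wnt receptor, rose by 1.67, with values of 3.96 to 5.47 in H and 2.30 to 3.95 in sham that all lie at the dim end. IGF1, the growth factor that stroma makes under growth hormone, had a change of 0.12 ± 0.27 (adjusted p = 0.854), and GHR, the growth hormone receptor, one of 1.17 ± 0.48 (adjusted p = 0.17).

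Among the genes that were higher in H, the largest change belonged to ATP6V0D2, a tissue-restricted subunit of the proton pump that acidifies lysosomes and the resorption space of osteoclasts. Its values were 7.61, 8.28, 7.77 and 8.26 in H, against 3.07, 3.59, 3.08 and 3.62 in sham. Both groups were tight and lay far apart, with the sham values at the dim end. ATP6V0D2 rose by 4.64 ± 0.89, or 24.9-fold (limma adjusted p = 0.0027). ACP5, tartrate-resistant acid phosphatase, an enzyme of osteoclasts and activated macrophages, had values of 12.14, 12.38, 10.65 and 11.96 in H, against 7.78, 7.78, 10.4 and 9.05 in sham. H array C and sham array C nearly met, and ACP5 rose by 3.04 ± 0.83 (adjusted p = 0.0311), or by 3.58 without sham C. Its adjusted p was 0.0617 to 0.105 when H array A, B or D or sham array A, B or D was left out. HPSE, heparanase, which cuts heparan sulfate chains, had values of 9.01, 9.61, 9.86 and 10.5 in H, against 6.9997, 6.99, 6.18 and 8.80 in sham. The lowest H array lay just above sham array D, and HPSE rose by 2.51 ± 0.59 (adjusted p = 0.0131). Of its 3 other probe sets 1 also rose, by 1.94.

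SMPDL3A, a lysosomal and secreted phosphodiesterase related to acid sphingomyelinase, rose by 2.15 ± 0.47 (limma adjusted p = 0.00797), with 10.6 to 11.4 in H and 7.84 to 9.46 in sham. CALCR, the calcitonin receptor, rose by 1.93 ± 0.47 (adjusted p = 0.0157), but no array of either group exceeded 4.51, which is dim. ANPEP, aminopeptidase N, a surface peptidase of myeloid and epithelial cells, rose by 2.12 ± 0.46 (adjusted p = 0.00764). LGMN, the lysosomal protease legumain, rose by 0.81 ± 0.24 (adjusted p = 0.0453, or 0.0521 without sham C). Its call was lost in 9 of 18 alternative settings, among them every omission of 1 H or sham array except H array C (adjusted p up to 0.148). The lysosomal cathepsins CTSK and CTSZ, chosen after their values were seen, rose by 0.91 and 1.21, while CTSD had a change of 1.21 and an adjusted p of 0.0766. MITF, a transcription factor of pigment cells, macrophages and osteoclasts, averaged 8.98 in H and 7.62 in sham and rose by 1.36 ± 0.32 (adjusted p = 0.0131), as did its second probe set, by 1.26. Sham C at 8.88 lay above H array D at 8.79, and the call was lost in the fit of H and sham alone (adjusted p = 0.0863) and without sham A (0.0754). MITF also stands among the melanocyte markers, whose mean level was 5.82 to 6.78 in H and 4.52 to 7.49 in sham, with sham C highest. No other of the 8 melanocyte markers passed, so 12.5% were called higher, against 1.26% of all genes.

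Macrophage markers lay higher in H as a list, although few passed singly. Of 23 measured, 22 had a positive change, with a median of 0.56, and 2 rose (8.70% against 1.26% of all genes). For 9 of the 23 every H array lay above every sham array, which is 39.1% against 5.82% of all genes. The mean level of the list was 9.45 to 9.90 in H and 8.92 to 9.31 in sham, so the groups did not overlap, and sham C was the highest of the sham arrays. LAPTM5, a lysosomal membrane protein of blood cells, had values of 10.8, 11.2, 10.9 and 11.4 in H, against 9.37, 9.34, 11.1 and 9.47 in sham. Sham C lay within the H range, and LAPTM5 rose by 1.24 ± 0.36 (limma adjusted p = 0.0453), or by 1.67 without sham C. PTPRC, the leukocyte common antigen CD45, averaged 6.47 ± 0.52 in H and 5.21 ± 0.34 in sham (SD, n = 4 each) and rose by 1.26 ± 0.35 (adjusted p = 0.0329). LAPTM5 lost its call in the fit of H and sham alone and without any single H or sham array other than sham C (adjusted p = 0.0610 to 0.144). PTPRC lost its call when sham A, sham D, H array B or H array D was left out (adjusted p = 0.0635 to 0.147). SIGLEC1, CTSS and VSIG4 came next, with changes of 0.88, 0.97 and 0.78 and adjusted p of 0.0528, 0.0539 and 0.0736. CD163 and MRC1, scavenger and mannose receptors of tissue macrophages, had changes of 0.42 and 0.50 and did not pass. The part of the macrophage level in the rises of ACP5, ATP6V0D2, ANPEP and the lysosomal genes was not tested. None of 15 lymphocyte markers and none of 6 mast cell and granulocyte markers passed.

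**Figure D3:**
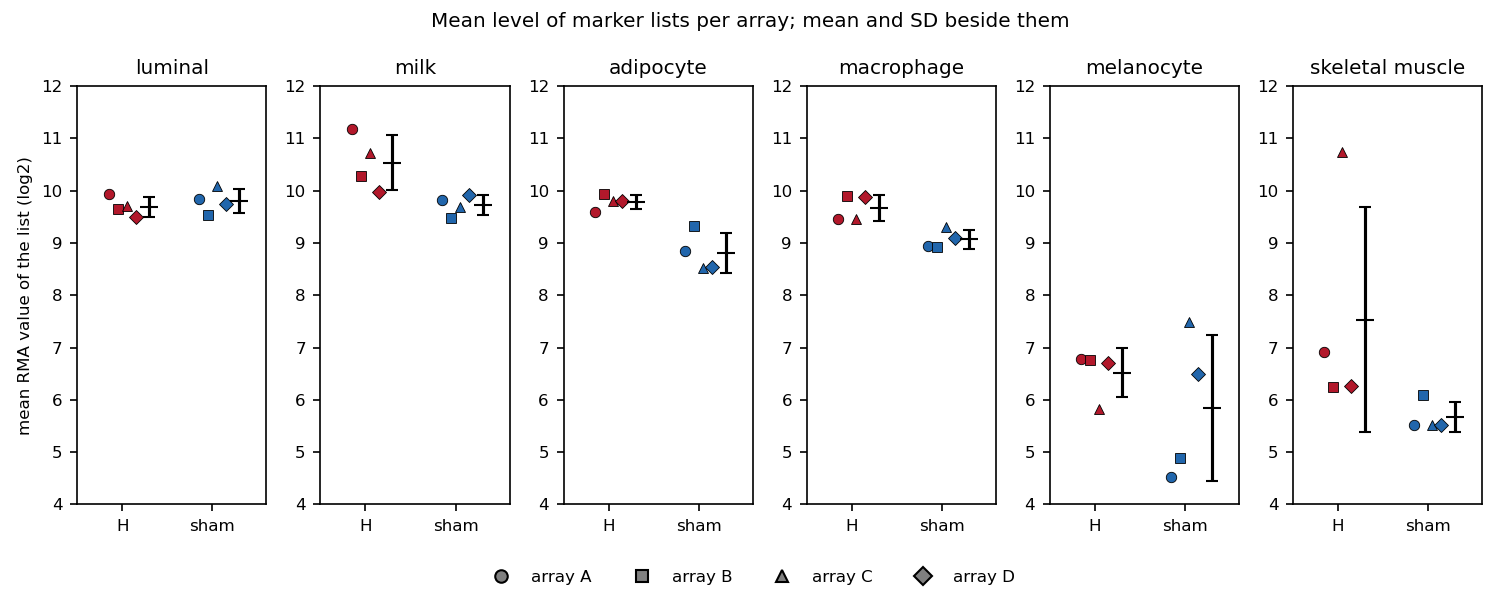
Mean RMA value (log2, y axis) over the measured genes of 6 marker lists in each array of H (left, red) and sham (right, blue), with the symbol giving the array letter and the bar giving mean and SD of 4 arrays. Macrophage, adipocyte and milk levels are higher in every H array than in any sham array, milk by a narrow margin (lowest H 9.97, highest sham 9.91). For skeletal muscle H array C is far the highest, and the other H arrays (6.24 to 6.91) also lie above the sham arrays (5.52 to 6.10). The melanocyte level ranges from 4.52 to 7.49 in sham.

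PDK4, PCK1 and ANGPTL4, which act in the use of fuels during fasting, rose in H. PDK4, the kinase that shuts down pyruvate oxidation and spares glucose, had values of 11.2, 11.2, 10.9 and 10.8 in H, against 8.48, 8.65, 8.00 and 8.22 in sham. Within each group the arrays agreed closely, and PDK4 rose by 2.67 ± 0.40, or 6.36-fold (limma adjusted p = 0.000323), with 3.31 for a second probe set. PCK1, the cytosolic enzyme of gluconeogenesis and, in fat, of glycerol synthesis, had values of 8.83, 10.15, 9.72 and 9.33 in H, against 6.42, 6.71, 6.0007 and 6.98 in sham. The groups lay well apart, and PCK1 rose by 2.98 ± 0.61, or 7.91-fold (adjusted p = 0.00466). ANGPTL4, a secreted inhibitor of lipoprotein lipase, had values of 11.3, 11.1, 9.53 and 10.6 in H, against 8.87, 8.81, 9.52 and 9.00 in sham. H array C and sham array C were almost equal, and ANGPTL4 rose by 1.59 ± 0.44 (adjusted p = 0.0343), as did a second probe set, by 1.83. The call was lost without any single H or sham array other than the arrays C, with adjusted p of 0.0768 to 0.113. Leaving out H array C, the one with the high muscle level, gave 2.72 for PDK4, 2.91 for PCK1 and 1.97 for ANGPTL4, all past the threshold.

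PDK4 and ANGPTL4 stand in a list of 12 measured genes that glucocorticoids induce in many tissues. Of these 4 rose (33.3% against 1.26% of all genes), the median was 0.79, and for 8 of the 12 (66.7% against 5.82%) every H array lay above every sham array. The members were chosen with earlier results of these data known, so these shares are no independent test of a glucocorticoid response. The count of calls was 2 without sham array A or D or H array B or D. The other called members were KLF9, a transcription factor, at 1.04 ± 0.30 (limma adjusted p = 0.041, or 0.104 without sham C), and NFKBIA, the inhibitor of NF-kappa-B, at 1.00 ± 0.23 (adjusted p = 0.0105). KLF9 lost its call without any single H or sham array other than H array A (adjusted p = 0.0539 to 0.114). A second, dim probe set of KLF9 had a change of 0.00. FKBP5 and TSC22D3, which respond strongly to glucocorticoids in other tissues, had changes of 0.95 and 0.57 and adjusted p of 0.0514 and 0.084. SGK1 and DUSP1 had changes of 0.17 and 0.37 and did not pass. FOXO1, a transcription factor that insulin signalling keeps out of the nucleus, averaged 9.88 ± 0.28 in H and 8.58 ± 0.40 in sham (SD, n = 4 each) and rose by 1.30 ± 0.26 (adjusted p = 0.00445). FOXO1, KLF9 and LGMN were the called genes among 25 genes of quiescence and cell death (12% against 1.26% of all genes), whose median was 0.49. For 9 of the 25 every H array lay above every sham array (36% against 5.82%). The count of calls was 1 without sham array A, B or D or H array B or D. CDKN1A, an inhibitor of the cell cycle, had a change of 0.13, and STAT3, which drives regression of the gland after weaning, one of -0.12. ZFP36, which destabilises cytokine mRNAs, rose by 1.17 ± 0.26 (adjusted p = 0.0091) and was the called gene among 15 immediate early genes (6.67% against 1.26% of all genes).

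Adipocyte markers leaned the same way. Of 18 measured, 17 had a positive change, with a median of 0.71, and 3 rose (16.7% against 1.26% of all genes). The count of calls was 1 without sham array A or D or H array B, C or D. The mean level of the list was 9.59 to 9.93 in H and 8.52 to 9.33 in sham. Beside PCK1, these were RBP4, the retinol carrier that liver and fat secrete, at 2.06 ± 0.55 (limma adjusted p = 0.029, or 0.0623 without sham C), and CFD, adipsin, at 1.65 ± 0.45 (adjusted p = 0.0331). CFD lost its call without any single H or sham array other than sham C (adjusted p = 0.0582 to 0.0882), and RBP4 lost it in 6 of the 8 omissions (up to 0.129). CFD lay at 11.9 to 12.1 in H, against 10.2 to 10.7 in sham, a narrow spread in both. ADIPOQ, adiponectin, had a change of 1.85 ± 0.58 (adjusted p = 0.0627), and FABP4 and PPARG, which mark fat cells generally, had changes of 0.12 and 0.04. None of 27 lipid synthesis genes passed. SLC27A6, a fatty acid transport protein, rose by 1.70 (adjusted p = 0.00926), but 1 of its 2 other probe sets had a change of -0.04. HNF4A, a transcription factor best known in liver, rose by 1.63 on dim values, and its second probe set had a change of -0.02.

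The casein genes had high means in both groups, from 11.8 to 12.2 in H and from 9.49 to 11.2 in sham, and the test across all 36 arrays called no milk gene higher. CSN2 had values of 12.14, 11.50, 12.04 and 11.64 in H, against 10.79, 10.30, 10.88 and 10.98 in sham. Every H array exceeded every sham array by a small margin. The change was 1.09 ± 1.36 (limma adjusted p = 0.723), where the SE comes from the spread within all 9 groups, and the 4 B arrays alone ranged from 2.25 to 11.6. A fit of the 8 H and sham arrays alone gave CSN2 an adjusted p of 0.0269, and that fit called 301 of 6360 genes (4.73%), 120 of them higher (1.89%). It called 4 of the 26 measured milk genes higher (15.4%): CSN2, TF, PIGR and SLC34A2. PIGR carries antibodies across the epithelium into milk, and TF is the iron carrier transferrin.

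The other caseins and whey proteins were more scattered. WAP, whey acidic protein, had values of 12.5, 9.77, 12.3 and 6.76 in H, against 7.68, 6.12, 6.02 and 10.1 in sham. The groups overlapped, with H array D below sham array D, and the change was 2.85 ± 1.51 (limma adjusted p = 0.308). LALBA, alpha-lactalbumin, which makes lactose synthesis possible, ranged from 5.47 to 12.4 in H and from 5.16 to 9.46 in sham. CSN1S1 and CSN3, further caseins, had changes of 0.61 and 1.54 and did not pass. Over the 26 milk genes 21 changes were positive and the median was 0.61. The mean level of the list was 9.97 to 11.2 in H and 9.47 to 9.91 in sham, which do not overlap. For 5 of the 26 (19.2%) every H array lay above every sham array, against 5.82% of all genes. The one called member, PTHLH, fell (3.85% against 2.92% of all genes).

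SLC34A2, a sodium-phosphate cotransporter of secretory epithelium, had values of 10.7, 9.86, 9.86 and 9.58 in H, against 7.94, 6.96, 8.31 and 7.63 in sham. The groups did not overlap, and the change was 2.28 ± 0.83, with an adjusted p of 0.116 in limma across all arrays and 0.0058 in the fit of these 8 arrays. None of 14 measured genes of the prolactin receptor and STAT5 pathway passed. STAT5A averaged 10.1 ± 0.26 in H and 9.70 ± 0.54 in sham (SD, n = 4 each), with a change of 0.37 ± 0.30 (adjusted p = 0.543), and STAT5B had a change of 0.17 ± 0.34 (adjusted p = 0.84). CISH and ELF5, known targets of this pathway, were not measured under their symbols.

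Epithelial structure genes did not pass the test across all 36 arrays. None of 22 luminal and none of 9 myoepithelial markers was called, and the mean luminal level was 9.49 to 9.94 in H and 9.53 to 10.1 in sham, which overlap. The fit of the 8 H and sham arrays alone called 2 of the 22 luminal markers lower, where it called 181 of 6360 genes lower (2.85%). It called no myoepithelial marker. The median of the luminal list was -0.39, and for 7 of the 22 (31.8%) every H array lay below every sham array, against 9.04% of all genes. KRT19, KRT18 and GATA3 had changes of -0.97, -0.91 and -0.92, with limma adjusted p of 0.0607, 0.0893 and 0.092. Of 28 chaperones and folding enzymes of the endoplasmic reticulum, HYOU1 alone was called (3.57% against 2.92% of all genes) and fell by 0.78 ± 0.21 (adjusted p = 0.031). For 9 of the 28, however, every H array lay below every sham array (32.1% against 9.04% of all genes). The call of HYOU1 was lost in the fit of H and sham alone (adjusted p = 0.0726) and without sham array A or D or H array B, C or D (up to 0.136). COX7A2, a subunit of cytochrome oxidase, was the only called gene of 43 of oxidative phosphorylation (2.33% against 2.92% of all genes) and fell by 0.56. Its call was lost in 9 of 18 alternative settings (adjusted p up to 0.128). In the serine and one-carbon list of 16, SHMT1 rose by 0.95 (6.25% against 1.26% of all genes) and MTHFD1L fell by 0.91 (6.25% against 2.92%). A second, dim probe set of SHMT1 had a change of -0.20. None of the 58 ribosomal protein genes, 24 interferon-induced genes or 23 endothelial genes passed.

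The B glands, with bromocriptine in place of haloperidol, were set beside H. The 2 comparisons share the 4 sham arrays, so their values are given side by side only. B minus sham called 870 probe sets (4.18%), 325 higher (1.56%) and 545 lower (2.62%), and 267 genes (4.2%). Of the 15 largest falls in H, 14 were also called lower in B, as were 3.3% of all genes: HAPLN1 had -5.52 in H and -4.96 in B, AREG -4.04 and -3.95, and TNC -2.78 and -2.64. Of the 15 largest rises in H, 2 were called higher in B, against 0.896% of all genes, ANPEP at 1.58 and FZD5 at 2.06. ATP6V0D2 had 4.64 in H and 0.33 in B, ACP5 3.04 and -0.44, HPSE 2.51 and 0.15, and SMPDL3A 2.15 and 0.30. The median of the macrophage list was 0.56 in H and 0.01 in B, and that of the adipocyte list 0.71 in H and 0.67 in B.

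**Figure D4:**
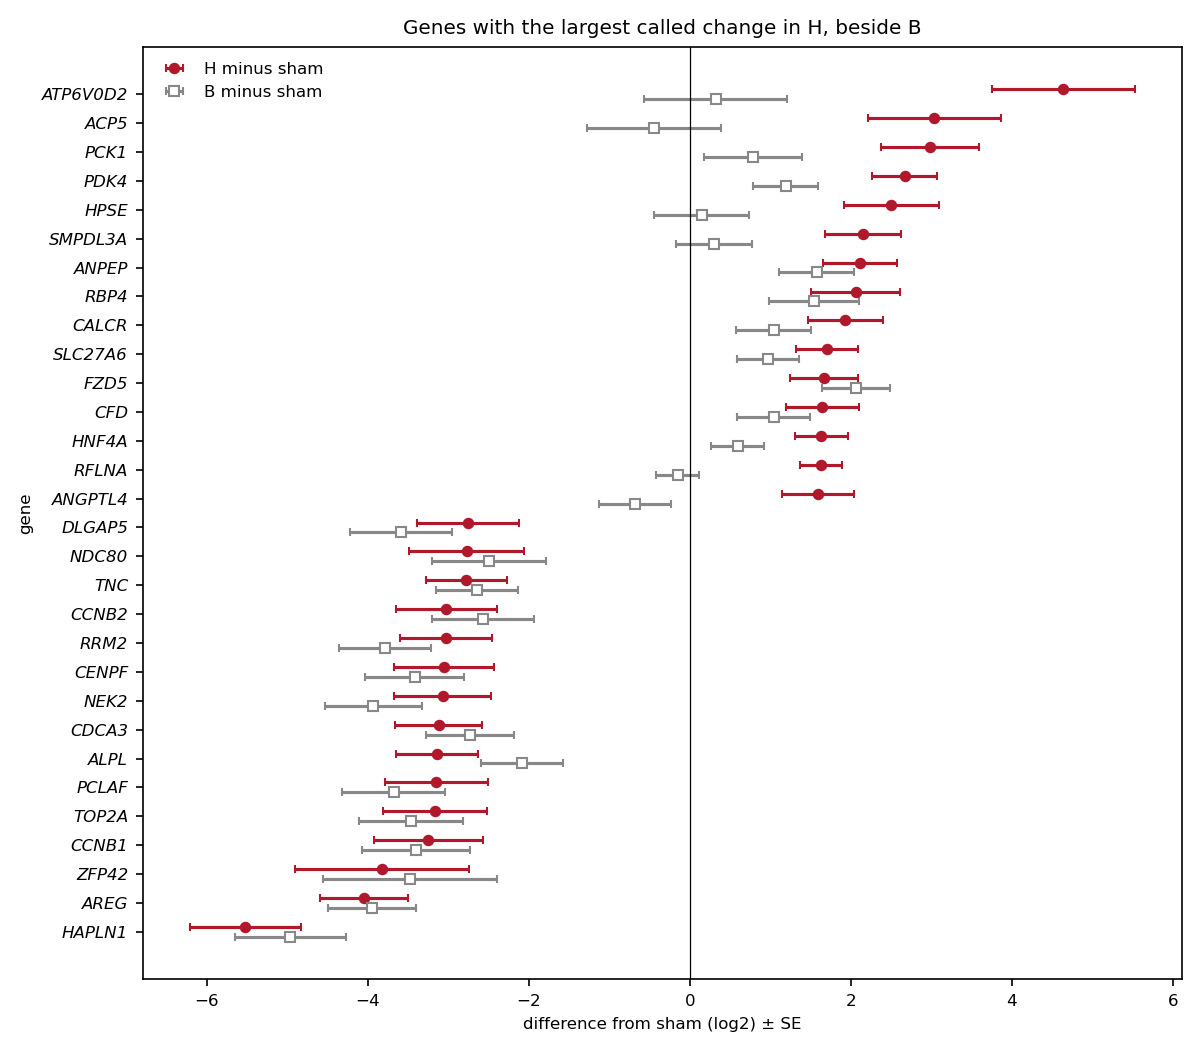
Difference from sham (log2 ± SE from limma, x axis) of the 15 genes with the largest called rise and the 15 with the largest called fall in H, shown for H (red circles, upper) and B (open grey squares, lower), 4 arrays per group. The 2 differences share the sham arrays. All 15 genes that fell in H are below 0 in B as well, while ATP6V0D2, ACP5, HPSE, RFLNA and ANGPTL4 are near or below 0 in B.

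The direct test of H minus B called 7 of 20792 probe sets (0.0337%), 6 higher (0.0289%) and 1 lower (0.00481%), with 2191 at an unadjusted p under 0.05. SLC34A2 had the largest estimate, 4.63 ± 0.83, or 24.7-fold (limma adjusted p = 0.0274), and its B values were 3.93, 7.40, 4.55 and 5.56, all below H. Of the B values 3 lie under the dim limit of 5.90, so the size of the fold rests on dim signals. RFLNA, refilin A, which organises actin filaments, had values of 7.97, 8.59, 8.65 and 8.496 in H, against 6.45, 6.86, 6.11 and 7.15 in B and 6.82, 6.89, 6.28 and 7.18 in sham. B and sham overlapped and H stood above both. RFLNA rose by 1.78 ± 0.26 against B (adjusted p = 0.00326) and by 1.63 ± 0.26 against sham (adjusted p = 0.00092). ANGPTL4 rose by 2.27 ± 0.44 against B (adjusted p = 0.0422). PDXK, pyridoxal kinase, rose by 1.72 against B (adjusted p = 0.0318), with a change of 0.53 against sham that did not pass. The remaining calls were an uncharacterised gene, LOC100515383, a probe set with no symbol, and the single fall, of 1.35, at a probe set for MRPS12, a mitochondrial ribosomal protein.

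Several large differences between H and B did not pass. CSN2 was 5.83 ± 1.36 higher (limma adjusted p = 0.104), ATP6V0D2 4.31 ± 0.89 (adjusted p = 0.0611), ACP5 3.48 ± 0.83 (adjusted p = 0.109) and HPSE 2.36 ± 0.59 (adjusted p = 0.128). B array A had a mean level of 12.7 over the muscle genes, and without it H minus B called 1 probe set. Without B array C it called 0, and without B array D it called 42.

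The levels over all 9 groups placed the H values among the other hormone combinations, where E is added estrogen and P added progesterone. AREG averaged 6.87 in H, 9.16 in HE, 6.67 in HP and 10.5 in HEP, then 6.96 in B, 10.8 in BE, 7.64 in BP and 10.4 in BEP, and 10.9 in sham. Among the ovariectomized groups, those without added estrogen had the lower means. BP array A, at 9.56, lay above 3 of the 4 HE arrays, and for HAPLN1 it lay at 8.05, against 3.86 to 5.02 in the other BP arrays. TOP2A was likewise low without added estrogen in the haloperidol groups, with 6.94 in H, 10.8 in HE, 6.96 in HP and 10.97 in HEP, against 10.1 in sham. HAPLN1 averaged 3.34 in H and 7.89 in HE, but 5.21 in HEP, against 8.86 in sham. PDK4 averaged 11.01 in H and 11.06 in HP, but 8.66 in HE and 9.48 in HEP, against 9.53 in B and 8.34 in sham. Among the haloperidol groups the higher PDK4 means were thus those without added estrogen. PDK4 was 1.47 ± 0.40 higher in H than in B, which did not pass (limma adjusted p = 0.169). ANGPTL4 had the same pair on top, 10.6 in H and 11.2 in HP, against 9.05 in sham. CSN2 averaged 11.3 to 12.3 in HE, HP and HEP and 7.502 to 9.97 in BE, BP and BEP, with SDs of 1.84 to 3.60 in the bromocriptine groups.

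ATP6V0D2 did not follow one hormone. It averaged 7.98 ± 0.34 in H, 3.51 ± 0.63 in HE, 5.62 ± 2.70 in HP and 7.97 ± 0.78 in HEP, then 3.67 ± 0.90 in B, 3.85 ± 0.92 in BE, 6.95 ± 2.20 in BP and 4.09 ± 1.10 in BEP, and 3.34 ± 0.30 in sham (SD, n = 4 each). Within HP and BP some arrays lay near 8 and others below 4. ACP5 had the same groups on top, 11.78 in H, 12.04 in HEP and 10.99 in BP, against 8.74 in sham. These differences between the other groups were not tested here.

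**Figure D5:**
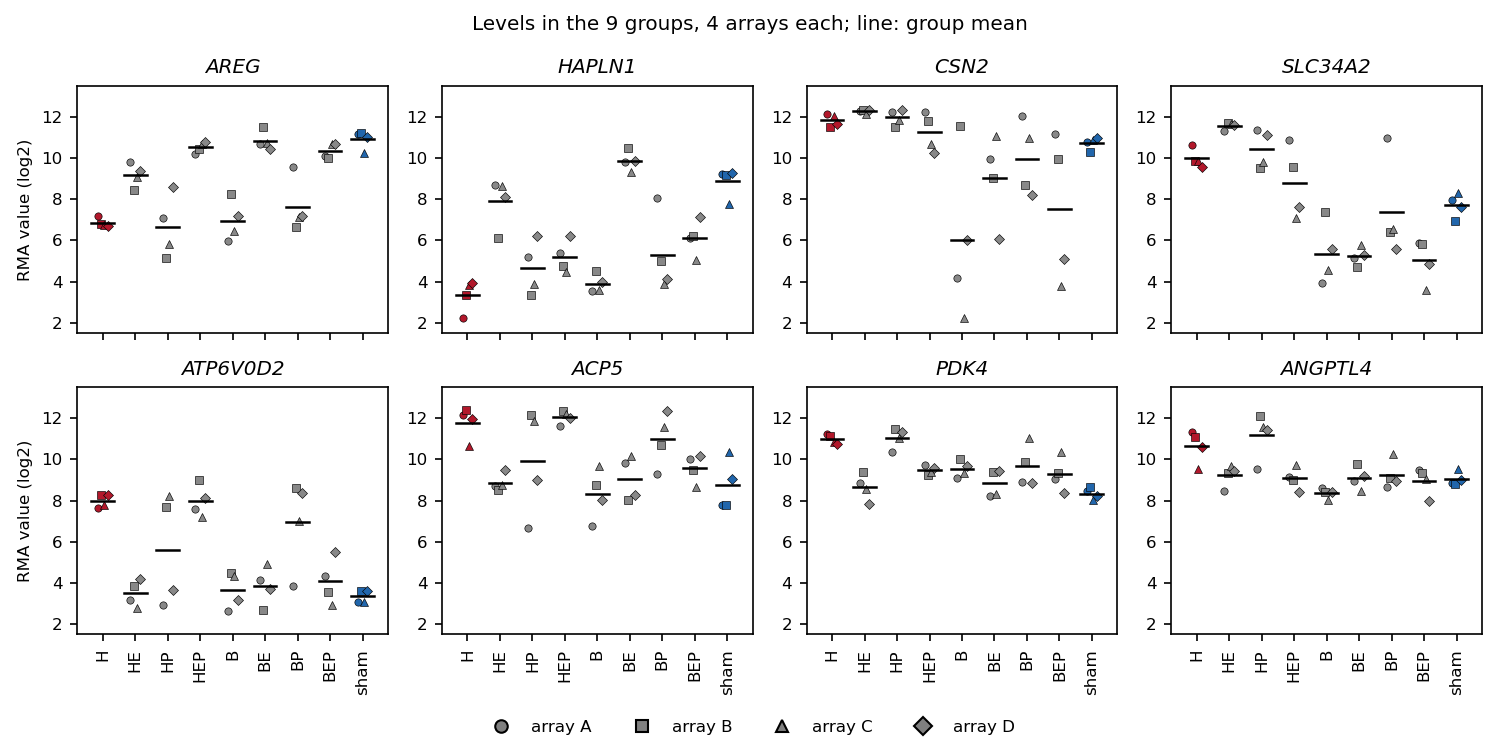
RMA values (log2, y axis) of 8 genes in all 9 groups (x axis), with H in red at the left, sham in blue at the right and the other groups in grey, 4 arrays each and a line at each group mean. AREG has lower means in the ovariectomized groups without added estrogen, with BP array A at 9.56, CSN2 and SLC34A2 are high with haloperidol, and ATP6V0D2 is high in all 4 arrays of H and HEP.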

How the data were processed

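Total RNA from pig mammary gland was hybridized to porcine Affymetrix arrays, 1 per animal. The authors deposited log2 values of probe sets made with RMA, per the submitters' processing notes, with no version given. The base of the logarithm is not stated, and the values (1.55 to 13.7, array medians 7.83 to 7.91) were read as log2, so each fold rests on that reading. Arrays have no depth to state: precision is set by how many pigs there were. No detection calls were used. A probe set was called dim where its mean over all arrays was below 5.90, the lowest of the arrays' lower quartiles.

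Groups came from the treatment labels. The design text gives 4 pigs to each combination, and each array was taken as its own animal. The letters A to D do not pair animals by any label, and the deviations of H and sham arrays with the same letter correlated at -0.27 to -0.02.

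Of 20792 probe sets, 9149 had 1 symbol, 178 several and 11465 none here. Of the single symbols 9054 were found by gene identifier in the reference table and 0 had changed. A gene is the probe set with the highest mean among those with its symbol alone.

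A model with 1 mean per group was fitted to all 36 arrays with limma 3.58.1 in R 4.3.3 (27 residual and 4.16 prior degrees of freedom), and two-sided p-values were given the Benjamini-Hochberg adjustment across every probe set. The script was tested on simulated data. Named genes are the 15 largest called changes in each direction, up to 4 called members of each of 29 lists and 34 fixed genes, of which 29 were measured. Beside these, list members are quoted as examples. The members and lists were chosen with earlier results of these data known, and 7 lists were measured at under 50% of their genes. The alternatives left out the probe sets with means below the median of all means, and changed the normalization, variance model or weights. They also added the letter as a block, took 1 probe set per gene, fitted only the groups compared and left out each array. Promoter sequences were not used here. Figures used matplotlib 3.10.9 and pandas 2.3.3.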

Additional observations from a re-analysis of the deposited data

Results flagged for a closer look

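In 8 of 136 checks, each of 4 arrays of H or sham for 1 named gene, the highest or lowest array lay further from the rest than the critical value of Dixon's test allows, where chance alone gives about 1 in 20. For HAPLN1, sham C at 7.75 lay below the other sham arrays at 9.20 to 9.27. For LAPTM5, sham C at 11.1 lay above the others at 9.34 to 9.47, and for FOXO1, sham C at 9.17 lay above the others at 8.30 to 8.42, so 3 of the 8 involve that array. For ALPL, H array A at 6.12 lay above the other H arrays at 4.64 to 4.85, and for RRM2 it lay at 6.31, below the others at 6.84 to 6.90. For PTPRC, H array B at 7.24 lay above the others at 6.13 to 6.28. For NEK2, sham A at 7.12 lay below the others at 8.57 to 8.61, and for LOXL1, sham B at 11.3 lay below the others at 11.7 to 11.8.

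The change from sham differed between H and B for 3 named genes by limma's test of H minus B itself. The difference was 4.63 for SLC34A2 (adjusted p = 0.0274), 2.27 for ANGPTL4 (adjusted p = 0.0422) and 1.78 for RFLNA (adjusted p = 0.00326). All 4 H arrays lay above all 4 B arrays in each of them.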

How the results depend on the processing

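Of the 47 named genes called in H minus sham, 26 kept their call under each of up to 18 alternative settings, 21 lost it in at least one, and none changed sign. Those that lost it were ACP5, ANGPTL4, CALCR, CFD, COX7A2, DKK3, FZD5, HPSE, HYOU1, KLF9, LAPTM5, LGMN, MITF, MTHFD1L, NDC80, PGR, PTPRC, RBP4, SHMT1, TIMP3 and ZFP42, with adjusted p up to 0.148, in most cases when 1 array was left out. The fit of H and sham alone lost COX7A2, HYOU1, LAPTM5, LGMN, MITF, TIMP3 and ZFP42 and called CSN2, SCARA5 and SLC34A2. The count of 841 called probe sets ranged from 422 to 1007 when 1 array was left out. It was 422 without H replicate D, 453 without H replicate B, 447 without sham replicate D, 476 without sham replicate A and 1007 without sham replicate C. Counts higher ranged from 134 to 524 and counts lower from 288 to 483. Over the same 8 settings the called members of all lists numbered 37 to 58, with cell cycle genes lower 22 to 28, adipocyte genes higher 1 to 3, glucocorticoid genes 2 to 3, macrophage genes 0 to 3, quiescence and death genes 1 to 2, milk genes 0 and matrix genes lower 3 to 4. Macrophage calls were 0 without sham replicate A, sham replicate D, H replicate B or H replicate D, and 1 without sham replicate B. H minus B, with 7 calls, ranged from 0 calls without B replicate C to 42 without B replicate D, with 1 without B replicate A, H replicate A or H replicate B. Array weights gave 3574 calls, 1877 higher and 1697 lower, with 148 list members, among them 5 milk, 6 matrix lower, 9 adipocyte, 7 macrophage, 12 quiescence and death and 7 glucocorticoid genes, and 104 calls in H minus B. Without dim probe sets there were 400 calls, 155 higher and 245 lower, with 36 list members, 14 cell cycle genes lower and 3 calls in H minus B, since fewer probe sets were tested. With 1 probe set per gene there were 314 calls, 105 higher and 209 lower. The fit of the compared groups alone called 4 milk and 6 quiescence and death genes higher. Macrophage calls were 4 in that fit, with 1 probe set per gene, with a variance trend, with the replicate block as a fixed or random term, and without BP replicate A. The last setting was chosen after seeing the data and gave 1255 calls, 543 higher and 712 lower, with 80 list members, 2 milk and 7 quiescence and death genes and 34 calls in H minus B. The replicate block gave 953 calls as a fixed and 921 as a random term, and 4 and 11 calls in H minus B. IGF1 lay between -0.11 and 0.39 and PNPLA3 between -0.79 and 0.21 with 1 array left out: IGF1 turned to -0.0030 without H replicate B and to -0.11 without sham replicate D, and PNPLA3, at -0.19 in the full fit, turned to 0.20 without sham replicate A and 0.21 without sham replicate B; neither passed in any setting. Apart from the smaller number tested, the cause of these shifts was not tested. Dim signals limit the folds of HAPLN1, ATP6V0D2, ZFP42, CALCR, FZD5, HNF4A, CDCA3, NDC80, CENPF and DLGAP5 against sham and of SLC34A2 against B, among others. A search of promoter motifs was not run.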
